A study of Mus musculus with 24 samples.

Results

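The expanded T cell clones of these tumors comprised 2895 CD8+ cells from 260 clones, and they were compared with 1766 CD8+ cells whose clone held a single cell. A clone was defined as the cells of 1 library that shared the V gene and the nucleotide sequence of the complementarity determining region 3 (CDR3) of the T cell receptor beta chain (TRB), taking for each cell the TRB contig with most unique molecular identifiers (UMIs, which count captured RNA molecules). Clones of at least 5 cells were called expanded and clones of 1 cell singletons, so the members were chosen by the measured clone size, UMI counts and CD8 reads. TRB was read in 7937 cell barcodes, which formed 4048 clones, among the 144994 barcodes of the series. Expanded clones held 3102 of these barcodes in 265 clones, and 2895 (93.3%) had at least 1000 UMIs, under 10% mitochondrial UMIs and at least 1 UMI of Cd8a or Cd8b1, the genes of the CD8 coreceptor. Of the remainder, 33 had no RNA profile, 39 had too few UMIs, 30 had too many mitochondrial UMIs and 105 had no CD8 UMI. Singletons held 3084 barcodes, of which 1766 (57.3%) passed, and 1230 lacked a CD8 UMI, 529 of them with a UMI of Cd4. Clones of 2 to 4 cells gave 1351 further CD8+ cells from 570 clones.

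The study treated mice bearing Panc02 tumors with a neoantigen peptide vaccine, PancVAX, and with the checkpoint antibodies Anti-PD-1 and Anti-CTLA-4. Panc02 is a pancreatic cancer line of the C57BL/6 strain, and its cells were implanted under the flank skin of wild-type male C57BL/6 mice aged 6 to 7 weeks. PancVAX peptides (50 µg) were given on days 12 and 19 (with ADU V16, a STING agonist), Anti-CTLA-4 (100 µg) on days 15 and 22, and Anti-PD-1 (100 µg) 2 times a week from day 12. Tumors were taken on day 38, pooled within a treatment and enriched for immune cells on Percoll, a density medium, before single-cell 5′ RNA and receptor sequencing. The 8 Percoll libraries were labelled PancVAX, PancVAX + Anti-PD-1 + Anti-CTLA-4, PancVAX + Anti-PD-1, PancVAX + Anti-CTLA-4, Anti-PD-1 + Anti-CTLA-4, Anti-CTLA-4, Anti-PD-1 and isotype control, and values for single libraries are given in that order. Each treatment had 1 library, so tests compared clone classes within the 8 libraries, or 4 libraries with PancVAX with 4 without it, and the spread of single mice was not measured.

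A CD8+ T cell that recognizes its antigen divides, and its daughters carry the same rearranged receptor. Within a mouse the CDR3 thus works as a tag of common descent. Tumors were pooled here, so cells of different mice with the same sequence would be counted as a single clone. The CDR3 is the part of the receptor that touches the peptide, and its middle is built from D segment bases and untemplated bases. In tumors and chronic infection, T cells under lasting antigen stimulation are known to raise inhibitory receptors such as PD-1 and LAG-3 together with the transcription factor TOX. Naive and central memory T cells instead keep the transcription factor TCF-1, encoded by Tcf7.

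The CDR3 nucleotide sequences of the largest clone in each library are shown because they define the members. Capitals mark the junction, that is the bases after the start common to at least 50% of clones with the same V gene and before the end common to at least 50% of clones with the same J gene. The TRB locus lies on chromosome 6.
PancVAX, TRBV5 and TRBJ2-2, 16 cells: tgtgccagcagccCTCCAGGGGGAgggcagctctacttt
PancVAX + Anti-PD-1 + Anti-CTLA-4, TRBV20 and TRBJ1-1, 113 cells: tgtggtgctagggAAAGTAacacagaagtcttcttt
PancVAX + Anti-PD-1, TRBV26 and TRBJ1-1, 45 cells: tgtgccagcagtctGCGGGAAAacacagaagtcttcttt
PancVAX + Anti-CTLA-4, TRBV16 and TRBJ2-5, 31 cells: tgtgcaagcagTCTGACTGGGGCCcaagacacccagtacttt
Anti-PD-1 + Anti-CTLA-4, TRBV5 and TRBJ1-1, 80 cells: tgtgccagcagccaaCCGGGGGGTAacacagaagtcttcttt
Anti-CTLA-4, TRBV5 and TRBJ2-3, 91 cells: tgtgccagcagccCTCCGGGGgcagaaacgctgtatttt
Anti-PD-1, TRBV13-1 and TRBJ1-6, 67 cells: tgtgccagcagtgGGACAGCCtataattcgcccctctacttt
Isotype control, TRBV16 and TRBJ2-3, 22 cells: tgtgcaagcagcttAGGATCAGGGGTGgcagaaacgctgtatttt
The 8 sequences all differ, and they use 5 V genes. The TRBV13-1 sequence of the Anti-PD-1 library was also found in the PancVAX + Anti-PD-1 library, in a clone of 14 cells.

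Clone sizes are described here without a test, since they chose the members. The largest clone took 1.96, 7.80, 3.07 and 3.59% of the TRB cells in the 4 libraries with PancVAX and 7.07, 9.57, 8.12 and 5.01% in the 4 without it. Of the CD8+ cells with TRB, expanded clones held 30.4, 40.3, 45.4 and 33.6% with PancVAX and 64.2, 59.2, 59.1 and 53.2% without it. The ranges of this share did not overlap. It also depends on the number of mice pooled, which the labels do not give, and on the TRB cells read. TRB cells numbered 816 to 1464 with PancVAX and 439 to 1131 without it, and the part of either was not tested. Libraries with PancVAX had 27, 49, 53 and 23 expanded clones and those without had 33, 32, 28 and 20, and these ranges overlapped. Clones of at least 20 cells numbered 0, 2, 5 and 2 with PancVAX and 9, 5, 5 and 1 without it. The alpha chain (TRA) did not define the clones and was read beside them. Among member cells with a TRA contig, 2436 of 2489 (97.9%) carried the TRA seen most often in their clone, and in 220 of 251 clones all of them did. That TRA was chosen from the same cells, so at least 1 cell of each clone matches by construction. Cells of different mice that share both chains would not be told apart.

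A TRBV16 receptor recurred in more expanded clones than any other and is shown because clones from tumors of different treatments encoded the same CDR3. It joined TRBJ2-7, had 42 bases, and was carried by 7 expanded clones of 142 cells in 6 libraries, in 4 nucleotide versions. Capitals mark the 2 positions at which the versions differed, and the cells of each clone follow the name of its library.
Anti-PD-1 + Anti-CTLA-4 (71 cells), Anti-PD-1 (21), isotype control (10) and PancVAX (6): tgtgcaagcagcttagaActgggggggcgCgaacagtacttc
PancVAX + Anti-PD-1 + Anti-CTLA-4 (13 cells): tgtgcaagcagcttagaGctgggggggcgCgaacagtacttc
Isotype control (12 cells): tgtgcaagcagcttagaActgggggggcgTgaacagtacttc
PancVAX + Anti-PD-1 (9 cells): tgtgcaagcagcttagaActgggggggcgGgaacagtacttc
No singleton and no clone of 2 to 4 cells with a CD8+ member encoded it, and those without such a member were not searched. In 6 of the 7 clones the alpha chain joined TRAV7D-2 and TRAJ7. In the PancVAX + Anti-PD-1 clone, with 2 CD8+ members among its 9 cells, the alpha chain joined TRAV12D-2 and TRAJ27. The alpha chain was taken over all cells of a clone, CD8+ members or not. Counts per 1000000 UMIs (CPM) of single clones are given with an exact Poisson interval, which covers counting error only. Pdcd1, which encodes PD-1, stood at 423 CPM (95% interval 372 to 479) in the largest of these clones, at 485 CPM (95% interval 355 to 647) in the one with all 3 agents, and at 321 CPM (95% interval 215 to 460.5) and 377 CPM (95% interval 277 to 501) in the pair from the isotype control. Over all 7 clones Pdcd1 ranged from 254 to 485 CPM, and all 7 intervals overlap. Gzmb, which encodes the cytotoxic protease granzyme B, ranged over the same 7 clones from 0 of 14328 UMIs in the PancVAX + Anti-PD-1 clone of 2 member cells (95% interval up to 257 CPM) and 127 CPM (95% interval 76.4 to 198) in the Anti-PD-1 clone to 2467 CPM (95% interval 2161 to 2804) in the clone with all 3 agents, and the last 2 intervals lie apart.

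Over all libraries, 13 encoded CDR3s with 1 V gene recurred in more than 1 expanded clone, in 32 clones with 642 cells. The J gene was not compared. For 11 of the 13 the clones had different nucleotide sequences. The same TRB nucleotide sequence was found in another library for 20 of 265 expanded clones (7.55%), 32 of 699 clones of 2 to 4 cells (4.58%) and 69 of 3084 singletons (2.24%). Each clone was counted once, by its sequence, with or without a CD8+ member, and no test was made. Of the 3084 singletons 1230 had no CD8 UMI, against 105 of 3102 barcodes of expanded clones. The shares thus set mostly CD8+ clones against a mixture. Barcode sequences of TRB cells seen in at least 2 libraries numbered 31, and 0 carried the same TRB in both. Of the cells with such a barcode sequence, 23 were members of expanded clones.

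The difference in beta V gene use between expanded clones and singletons, counting each clone once, passed the threshold for 0 of the 20 V genes tested (exact sign-flip permutation over the 8 libraries, 2-sided, Benjamini-Hochberg adjustment), with a lowest adjusted p of 0.0521. Over all clones of both classes, with or without a cell past the CD8 limits, an alternative chosen after seeing the data, 9 of 21 passed (lowest adjusted p of 0.0328, same exact permutation test), so the call depended on which clones were counted. That setting took expanded clones from 260 to 265 but singletons from 1766 to 3084. Of these singletons 1230 had no CD8 UMI, 529 of them with a Cd4 UMI, so it set mostly CD8+ clones against a mixture. Of the 20 V genes of the main test, 9 had an unadjusted p under 0.05, and the test can give no p under 0.0078125. TRBV5 made up 17.6% of expanded clones and 6.60% of singletons on average and was higher in 7 of 8 libraries. TRBV26 (8.29 against 4.60%) was higher in 8 of 8, and TRBV16 (12.7 against 7.83%) in 7 of 8. TRBV13-3 (1.73 against 5.85%) was lower in 7 of 8. The mean CDR3 length, 41.9 bases in expanded clones and 41.8 in singletons, differed by 0.10 ± 0.61 bases (SD, n = 8; exact sign-flip permutation p = 0.648).

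The alpha chain J segment TRAJ7 was frequent in expanded clones, a pattern chosen for description after its values were seen and therefore not tested. Of 258 expanded clones and 1430 singletons with a CD8+ member and a TRA contig, TRAJ7 was joined in 34.1% of the expanded and 9.79% of the singletons on average over libraries, a difference of 24.4 ± 16.2 percentage points (SD, n = 8). It was higher in 8 of 8 libraries, and for the remaining J genes among the 32 compared the difference lay between -4.37 and 4.48 points. With PancVAX the TRAJ7 share of expanded clones was 26.9, 10.9, 11.5 and 22.7%, and without it 48.5, 46.9, 40.7 and 65.0%. In singletons it was 8.80, 6.27, 6.60 and 7.41% with PancVAX and 11.7, 11.5, 10.8 and 15.2% without. In both classes each library with PancVAX was lower than each library without it.

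**Figure D1:**
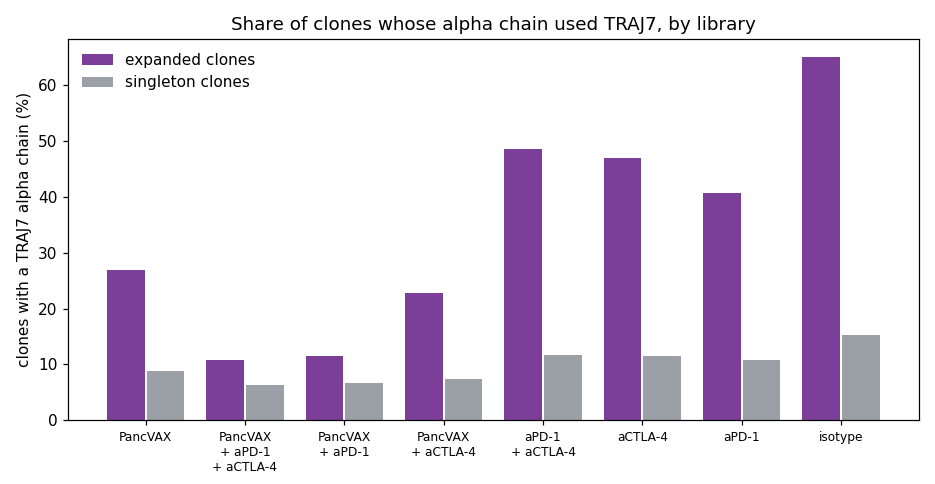
Percent of clones whose alpha chain joins TRAJ7 (vertical axis) in each of the 8 libraries, for expanded clones (at least 5 cells) and singletons (1 cell), counting each clone once. In every library the expanded bar is the higher one, from 10.9 to 65.0% against 6.27 to 15.2%, and the tallest expanded bars belong to libraries without PancVAX.

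TRAJ7 went with TRBV5. Among expanded TRBV5 clones 35 of 42 (83.3%) joined TRAJ7, against 43 of 216 (19.9%) with another beta V gene. The same shares were 60.3% (35 of 58) and 13.1% (64 of 488) in clones of 2 to 4 cells and 35.6% (37 of 104) and 6.94% (92 of 1326) in singletons. The 35 expanded TRBV5 and TRAJ7 clones held 549 cells in 8 libraries, with 14 alpha V genes and 21 different TRA CDR3 sequences. These CDR3s ended in the same 27 bases. As the clones were chosen for joining TRAJ7, a shared end follows in part or whole from that choice. The 2 TRA sequences carried by the most clones of this set and that of the largest one are shown because they show how little lies between the V start and this end. Capitals mark the bases between the first 9 and the shared 27.
TRAJ7, 10 clones of 188 cells in 6 libraries: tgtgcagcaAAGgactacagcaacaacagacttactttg
TRAJ7, 6 clones of 86 cells in 4 libraries: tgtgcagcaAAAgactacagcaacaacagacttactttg
TRAJ7 with TRAV3D-3, 1 clone of 91 cells: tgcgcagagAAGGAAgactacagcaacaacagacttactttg
Their beta CDR3s had 39 to 45 bases, with 39 in 13 of the 35. The next pair of segments in number, TRBV16 with TRAJ7, was joined in 18 expanded clones and 6 singletons. The RNA of these cells is again given as a description. Per library, Pdcd1 stood at 331 to 629 CPM (median 431) in the TRBV5 and TRAJ7 clones and 263 to 484 CPM (median 363) in the other expanded clones. The ranges overlap. Ly6c2, a surface protein of circulating memory cells, stood in the libraries with PancVAX at 234, 18.9, 257 and 70.4 CPM in the TRBV5 and TRAJ7 clones and 743, 431, 780.1 and 721 in the other expanded clones, lower in 4 of 4. In the former these are only 4, 1, 5 and 2 clones of 43, 16, 70 and 14 cells, and single clones differed widely. Without PancVAX it stood at 53.9, 124, 141 and 40.7 in the former and 158, 52.7, 161 and 25.8 in the latter, lower in 2 of 4 and higher in 2. Ccl5, a chemokine of effector cells, stood at 2643, 1762, 2297 and 358 CPM in the former and 6542, 5747, 7409 and 7355 in the latter with PancVAX, again lower in 4 of 4. Without PancVAX the former held 1719, 2043, 2906 and 1820.5 and the latter 2048, 2423, 1287 and 2041 CPM, lower in 3 of 4. The gaps were thus wider in the libraries with PancVAX, which was not tested.

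For the RNA of the classes, UMIs were summed over the cells of a class in each library, which gave 1473945 to 5703666 UMIs for expanded clones and 994980 to 2648783 for singletons per library. In such sums, fewer cells with a transcript and less of it per cell cannot be told apart. Expanded cells also held more UMIs each (5838 against 5008 on average over libraries, higher in 8 of 8), which is given without a test because a limit on UMIs chose the cells. With the study's limits of 200 to 3000 genes and at most 10000 UMIs the difference was 314.9 UMIs, higher in 5 of 8. The label of a T cell was checked on Cd3e, Cd3d, Cd3g and Trac, which the choice of cells did not use. They summed to 2728 to 4066 CPM in expanded and 2018 to 2846 in singleton sums, with no gene at 0. Cd8a and Cd8b1 had chosen the cells and check nothing. Cd4, Foxp3 and Cd40lg together stood at 1.32 to 4.77 CPM in expanded clones and 7.14 to 30.2 in singletons. Markers of other cells were read in both: the 5 macrophage genes summed to 72.5 to 551 and 121 to 972 CPM, tumor and stromal genes to 138 to 1167 and 313 to 902, and neutrophil genes to 18.1 to 282 and 10.1 to 272. With cells bearing such markers left out, expanded clones and singletons differed in 701 genes, against 537 with them.

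Expanded clones and singletons differed in 537 of 9014 genes tested (5.96%), 259 higher (2.87%) and 278 lower (3.08%) in expanded clones. A gene was called at an adjusted p below 0.05 and a log2 fold change above 0.5 in size (edgeR quasi-likelihood test with the library as a block, Benjamini-Hochberg adjustment over all genes), and the segment genes of the receptors were left out. For 126 genes (1.4%) the CPM of the 8 libraries did not overlap between the classes, with expanded clones above in 81 (0.899%) and below in 45 (0.499%). The median log2 fold change of all genes tested was -0.0123. In simulated sums with 200 genes changed 2-fold, 93.0% of them were recovered in this comparison.

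Inhibitory receptors and factors of exhaustion were higher in expanded clones, with 12 of 13 listed genes called higher and a median log2 fold change of 0.96. Pdcd1 (ENSMUSG00000026285, chromosome 1, 94038305–94052553, GRCm38) stood at 295 to 476 CPM (median 396) over the 8 expanded sums and 116 to 208 CPM (median 168) over the singleton sums. Every expanded sum was above every singleton sum, and the log2 fold change was 1.17 ± 0.09 (SE, adjusted p = 4.51e-06), a fold of 2.25. Tox (ENSMUSG00000041272, chromosome 4, 6686353–6991557), the transcription factor that sets the exhausted state, stood at 109.6 to 225 CPM (median 153) and 42.1 to 87.6 CPM (median 53.4). It too did not overlap, with a log2 fold change of 1.39 ± 0.09 (SE, adjusted p = 1.77e-06). Lag3 (ENSMUSG00000030124, chromosome 6, 124904359–124912434), a receptor of MHC class II, stood at 256 to 474 CPM (median 290.1) against 92.8 to 158 CPM (median 126), again without overlap, and rose by 1.35 ± 0.08 (SE, adjusted p = 1.22e-06). Cd244a, the receptor 2B4, rose by 1.58 ± 0.16 (SE, adjusted p = 2.79e-05) from a median of 14.5 to one of 43.6 CPM, and its ranges overlapped in part. Tnfrsf9, the costimulatory receptor 4-1BB that T cells raise after receptor engagement, rose by 1.14 ± 0.10 (SE, adjusted p = 1.42e-05) and did not overlap. Havcr2, which encodes TIM-3 and is linked to terminal exhaustion, rose by 0.96 ± 0.14 (SE, adjusted p = 3.65e-04), from a singleton range of 12.1 to 29.8 CPM (median 19.2) to an expanded range of 22.9 to 56.8 CPM (median 37.6). The listed gene that did not pass was Cd160, at 0.39 ± 0.12 (SE, adjusted p = 0.0571). Ctla4, at 0.50 ± 0.09 (SE, adjusted p = 0.00307), lay on the limit of 0.5 and lost its call without the Anti-PD-1 + Anti-CTLA-4, Anti-CTLA-4, Anti-PD-1 or isotype control library (log2 fold change 0.43 to 0.58 over the 8 omissions).

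Cytotoxic genes were higher in part, with 11 of 20 called higher, 1 lower and a median of 0.64. The largest rise among the genes named here was that of Gzmf (ENSMUSG00000015441, chromosome 14, 56205263–56211407), a granzyme of strongly activated cells, with 91.9 to 1661 CPM (median 1304) in expanded clones and 6.00 to 769.9 CPM (median 149) in singletons, 3.01 ± 0.31 (SE, adjusted p = 2.87e-05). The 2 ranges overlap, but Gzmf was higher in expanded clones in 8 of 8. By library, expanded clones held 1661, 91.9, 988 and 325 CPM with PancVAX and 1551, 1062, 1578 and 1546 without it, and singletons 769.9, 12.5, 53.2 and 6.00 with and 194, 144, 257 and 154 without. Gzmd (2.91), Gzme (2.45) and Gzmg (2.87) were called with it. These 4 genes are near copies of each other, so reads may have been shared among them, and Gzmg lost its call without the PancVAX + Anti-CTLA-4, Anti-PD-1 + Anti-CTLA-4 or Anti-PD-1 library (adjusted p of 0.0554 to 0.0799). Prf1, the pore-forming perforin, rose by 1.43 ± 0.19 (SE, adjusted p = 2.53e-04), from a singleton range of 20.5 to 118 CPM (median 50.3) to an expanded range of 94.3 to 234 CPM (median 148). Gzma, granzyme A, rose by 1.55 ± 0.20 (SE, adjusted p = 2.11e-04), and Ifng, interferon gamma, by 0.69 ± 0.16 (SE, adjusted p = 0.00951). Gzmb changed less, by 0.59 ± 0.14 (SE, adjusted p = 0.015), and lost its call without the Anti-PD-1 or the isotype control library (log2 fold change 0.49 at the lowest). It lost it also with the study's cell limits (0.03, adjusted p = 0.888), for clones of at least 10 cells (adjusted p = 0.0608), with cells bearing markers of other cell types left out (0.24, adjusted p = 0.234) and without the library block (adjusted p = 0.0882). Tnf, at -0.53 ± 0.10, was the member called lower, and it lost its call without the PancVAX or the Anti-PD-1 + Anti-CTLA-4 library. Ccl5 was not called (-0.48 ± 0.12 SE, adjusted p = 0.0206).

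**Figure D2:**
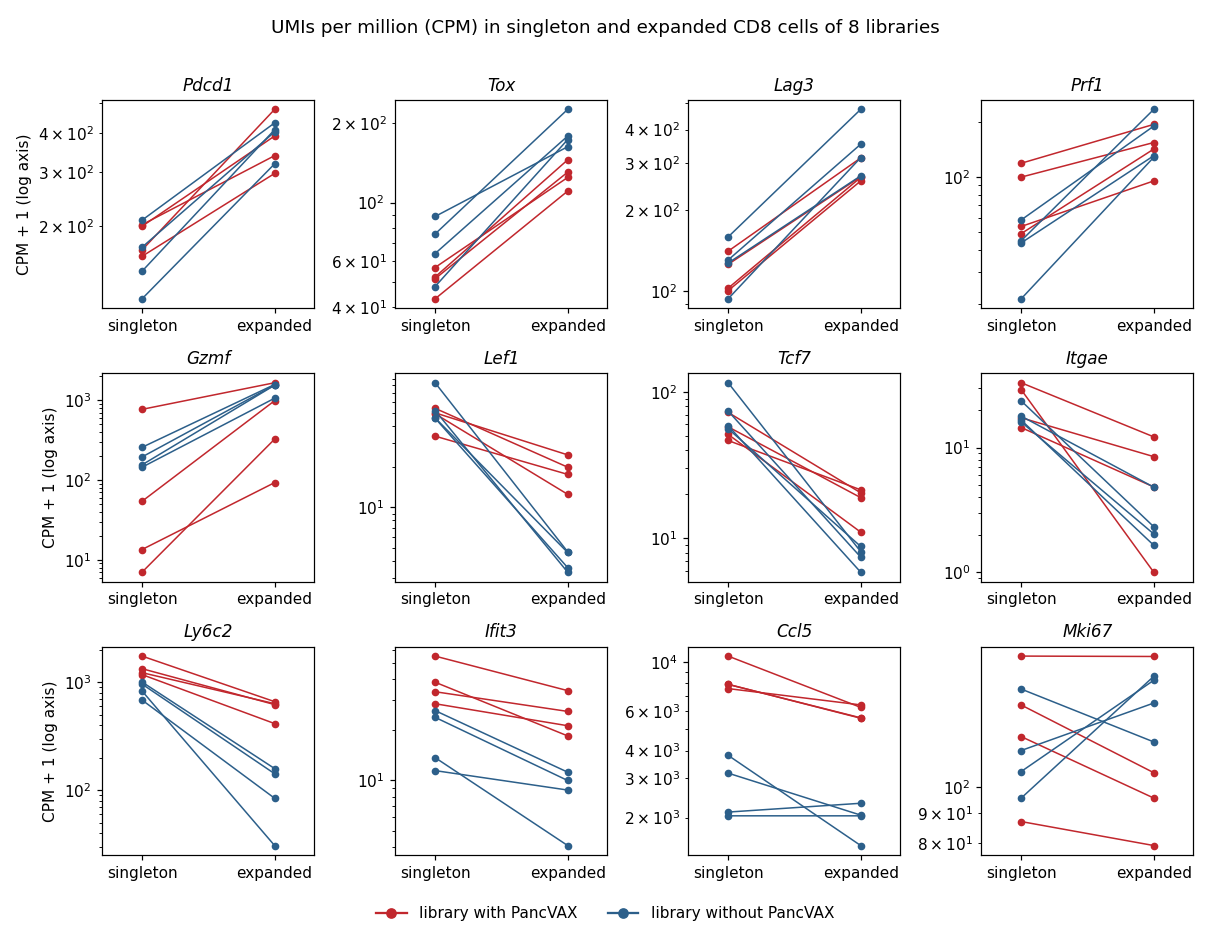
CPM + 1 on a log axis for 12 genes in singletons and expanded clones, with 1 line per library, in red with PancVAX and in blue without it. The medians rise for Pdcd1, Tox, Lag3, Prf1 and Gzmf, fall for Lef1, Tcf7, Itgae, Ly6c2 and Ifit3, and run level for Mki67 (medians of 118 and 128 CPM).

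Genes of naive and central memory cells were lower, with 12 of 15 called lower, 0 higher and a median of -1.34. Tcf7 (ENSMUSG00000000782, chromosome 11, 52246527–52283383) fell from a singleton range of 45.5 to 114 CPM (median 57.3) to an expanded range of 4.88 to 20.4 CPM (median 8.92), -2.55 ± 0.26 (SE, adjusted p = 2.81e-05), without overlap. Lef1, the partner factor of Tcf7, fell from a singleton range of 32.7 to 82.8 CPM (median 48.8) to an expanded range of 2.31 to 23.5 CPM (median 7.60), -2.43 ± 0.37 (SE, adjusted p = 6.41e-04), and Klf2, the factor that drives S1pr1, from a singleton range of 443 to 768 CPM (median 581) to an expanded range of 125 to 442 CPM (median 209), -1.40 ± 0.15 (SE, adjusted p = 3.25e-05). For both, every expanded sum was below every singleton sum. Ccr7, a lymph node homing receptor, fell by less (-1.14 ± 0.27 SE, adjusted p = 0.0141) and was lower in 7 of 8 libraries. S1pr1, the receptor with which lymphocytes leave tissue, was lower (-1.97 ± 0.48 SE, adjusted p = 0.0168), but its expanded sums ran from 0.264 to 77.2 CPM and overlapped with the singleton sums, and with at most 5 cells per clone it was not called (-1.40, adjusted p = 0.0551). Il7r, the interleukin 7 receptor, did not pass (-0.10 ± 0.14 SE, adjusted p = 0.735). Bach2 and Il6ra, called lower here, each lost the call without most single libraries (5 and 7 of the 8), with adjusted p up to 0.101 and 0.148.

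Of the genes of stem-like exhausted cells, a less differentiated group that sustains the response, 6 of 11 tested were lower and 0 higher. Slamf6, a surface marker of that group, fell from a singleton range of 4.22 to 21.0 CPM (median 12.6) to an expanded range of 0.645 to 8.95 CPM (median 2.41), -2.03 ± 0.27 (SE, adjusted p = 2.01e-04). Eomes, a T-box factor, fell by 0.96 ± 0.19 (SE), and Tnfsf8, the CD30 ligand, fell by 1.36 ± 0.24 (SE). Tcf7 and Ccr7, given above, are members of this list too, so the lists are not separate evidence.

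Genes tied to tissue residency moved in both directions, with 3 of 8 tested higher and 2 lower. Cxcr6, a chemokine receptor of resident cells, rose by 0.88 ± 0.11 (SE, adjusted p = 1.41e-04), from a singleton range of 136 to 243 CPM (median 172) to an expanded range of 252 to 411 CPM (median 303), and Prdm1, the factor Blimp-1, by 0.83 ± 0.15 (SE, adjusted p = 0.00269). Itgae (ENSMUSG00000005947, chromosome 11, 73090505–73147449), the integrin that binds epithelial cadherin, instead fell from a singleton range of 13.5 to 32.2 CPM (median 16.6) to an expanded range of 0 to 11.2 CPM (median 2.57), -2.39 ± 0.37 (SE, adjusted p = 6.57e-04). Cd69, which holds cells in tissue, fell from a singleton range of 281 to 434 CPM (median 389) to an expanded range of 163 to 299.7 CPM (median 206), -0.79 ± 0.08 (SE, adjusted p = 4.26e-05). Of 15 tested genes of circulating effector memory cells, 2 were higher and 3 lower. Ly6c2 (ENSMUSG00000022584, chromosome 15, 75108161–75112066) fell from a singleton range of 684 to 1750.5 CPM (median 1092) to an expanded range of 29.7 to 661 CPM (median 286), -2.16 ± 0.32 (SE, adjusted p = 5.41e-04), and every expanded sum was below every singleton sum. Ly6c2 is a near copy of Ly6c1, and reads may have been shared. Itgb7, an integrin chain of gut homing, fell by 1.45 ± 0.22 (SE) and Klf3, a factor of quiescent lymphocytes, fell by 1.18 ± 0.17 (SE). Among chemokine receptors, 1 of 8 tested was higher (Cxcr6) and 4 lower. Those were Cxcr4 (-1.61), Cxcr3 (-1.47), the receptor of interferon-induced chemokines, Ccr2 (-1.09) and Ccr7.

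Interferon-stimulated genes were lower, with 10 of 12 called lower, 0 higher and a median of -0.80. Ifi27l2a fell from a singleton range of 207 to 653 CPM (median 348) to an expanded range of 73.3 to 279 CPM (median 183), -1.25 ± 0.14 (SE, adjusted p = 5.93e-05). Ifit1 (-1.08 ± 0.19 SE, adjusted p = 0.00175) and Ifit3 (-0.91 ± 0.16 SE, adjusted p = 0.00175) fell with it. The Ifit genes have near copies. Isg20 and Rsad2 did not pass, and Bst2 lost its call without the Anti-CTLA-4 library (log2 fold change -0.45). Of 16 genes that respond to receptor signalling, 3 were higher and 1 lower. Irf8 rose from a singleton range of 70.1 to 173 CPM (median 112) to an expanded range of 159 to 414 CPM (median 348), 1.53 ± 0.13 (SE, adjusted p = 8.04e-06), and Dusp4, a phosphatase of the MAP kinases, by 0.64 ± 0.10. Cd200 (0.98) lost its call without the Anti-PD-1 library (adjusted p = 0.0551), and Nfkbid, an inhibitor of NF-kappaB, was the gene called lower (-1.17 ± 0.16). The early genes Nr4a1 (-0.23 ± 0.12) and Egr1 (-0.17 ± 0.11) did not pass.

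Receptors shared with NK cells were higher in 4 of 7 tested and lower in 0. Klre1 rose by 1.11 ± 0.10 (SE, adjusted p = 1.18e-05), Klrd1, which encodes CD94, by 0.82 ± 0.08 (SE, adjusted p = 2.83e-05), and Klrc1, the NKG2A partner of CD94, by 0.65 ± 0.14 (SE, adjusted p = 0.00935). Klrc1 lost its call without the library block (adjusted p = 0.119) and with cells bearing markers of other cell types left out (log2 fold change 0.43). Klri2 (1.13) lost its call without the PancVAX, the PancVAX + Anti-PD-1 + Anti-CTLA-4 or the isotype control library (adjusted p up to 0.0544). Of 15 fate-setting transcription factors tested, Tox, Tbx21, Prdm1 and Ikzf2 (0.62) were higher and Tcf7, Lef1, Bach2 and Eomes lower. Tbx21 (0.54), the factor T-bet, lost its call without the Anti-CTLA-4 or the Anti-PD-1 library (log2 fold change 0.44 at the lowest). None of the 16 cell cycle genes was called in either direction. Mki67, a protein of dividing cells, stood at 78.2 to 167 CPM (median 128) and 86.1 to 167 CPM (median 118), a log2 fold change of 0.03 ± 0.12 (SE, adjusted p = 0.923), and the ranges overlapped over most of their length.

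Outside the lists, the called genes with most change in size and the same sign in all 8 libraries included the serine protease inhibitors Serpinb9b (2.29 ± 0.41) and Serpine2 (1.89 ± 0.19), the transmembrane protease Tmprss6 (2.25 ± 0.21), the predicted gene Gm156 (2.21 ± 0.14), Igfbp7 (1.91 ± 0.21), a secreted binding protein, and Adgrg1 (1.69 ± 0.14), an adhesion receptor of cytotoxic lymphocytes. Gm156 stood at 105 to 201 CPM (median 133) in expanded clones and 16.2 to 69.8 CPM (median 25.2) in singletons, without overlap. Fam178b (2.10), Ugt1a7c (2.02) and Gldc (1.83), the glycine decarboxylase, completed the 10 largest rises with Gzmf. The largest falls included Nsg2 (ENSMUSG00000020297, chromosome 11, 31999704–32059211), a vesicle protein known from neurons, at 0 to 2.06 CPM (median 0.731) in expanded clones and 10.9 to 39.6 CPM (median 20.5) in singletons, -4.58 ± 0.30 (SE, adjusted p = 1.56e-06). Treml2 (-3.61), a receptor of lymphocytes, Cmah (-3.23), the sialic acid hydroxylase, the phosphodiesterase Pde2a (-2.59), Fam241a (-2.42) and Gzmm (-2.40), granzyme M, followed, with Tcf7, Lef1 and Itgae. Granzyme M thus fell while granzymes A and F rose.

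The comparison was repeated within subsets of the cells. With cells left out that had a UMI of naive cell genes, Ccr7 and Lef1 among them, 310 genes were called. Pdcd1 was then at 0.78 (adjusted p = 1.76e-04), Tox at 1.04 (adjusted p = 3.53e-04), Lag3 at 0.92 (adjusted p = 1.76e-04) and Tcf7 at -1.75 (adjusted p = 3.53e-04), and 24 of 72 named calls were lost. Among the lost were Gzmb (adjusted p = 0.0945), Ifng (0.0666), Ctla4 (0.0646), Eomes (0.354), Prdm1 (0.121), Cd69 (0.196), Dusp4 (0.268) and Tbx21 (0.0626), the interferon-stimulated genes Bst2, Irf7, Isg15, Oasl2 and Zbp1, and Tigit and Klrc1, whose log2 fold changes of 0.40 and 0.42 fell under the limit of 0.5. With only cells that had a Pdcd1 UMI, 96 genes were called and 46 of 74 named calls were lost. Tox remained called (0.69, adjusted p = 0.0127), as did Lag3 (0.63, adjusted p = 0.00572), Prf1 (1.10, adjusted p = 0.0141), Gzmf (2.30, adjusted p = 0.00315), Tcf7 (-1.48, adjusted p = 0.00414) and Ly6c2 (-1.34, adjusted p = 0.00924). Havcr2 (0.40, adjusted p = 0.149) and Tigit (0.19, adjusted p = 0.467) did not pass there. With at most 5 cells taken from each clone, so that no clone outweighed another, 318 genes were called, with Pdcd1 at 1.08 (adjusted p = 3.74e-04) and Tcf7 at -2.35 (adjusted p = 4.22e-04). Of 84 named calls 21 were lost there. Among cytotoxic genes those were Gzmb (adjusted p = 0.0658), Gzmd (0.0788), Gzme (0.11), Gzmg (0.724), Ifng (0.0569) and Tnf (0.128), with Nkg7 under the limit on the log2 fold change. Among other genes called lower they were Ccr7 (0.0833), Eomes (0.0528), Dapl1 (0.0681), Ifit3 (0.0645), Isg15 (0.0528), Bach2, Il6ra and S1pr1. Serpinb9b (0.0616), Tbx21 (0.088), Cd200, Ctla4, Itga4 and Klri2 were the others.

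Part of the difference was also called in small clones, with many calls lost when single libraries were left out. Clones of 2 to 4 cells differed from the same singletons in 71 of 8702 genes (0.816%), 37 higher (0.425%) and 34 lower (0.391%). Of the inhibitory genes 7 of 13 were higher, of the cytotoxic genes 5 of 19, and of the naive and central memory genes 6 of 15 were lower. Pdcd1 differed by 0.80 ± 0.13 (SE, adjusted p = 0.0166), Lag3 by 0.83 ± 0.15 (SE, adjusted p = 0.024), Gzmf by 1.70 ± 0.32 (SE, adjusted p = 0.024) and Tcf7 by -1.31 ± 0.26 (SE, adjusted p = 0.0289). Tox stood at 0.83 ± 0.19 (SE, adjusted p = 0.0514) and did not pass. The same values for expanded clones, given above, were larger in size for these 5 genes, and since both comparisons share the singletons the step between them was not tested. Leaving out the Anti-PD-1 + Anti-CTLA-4 library reduced the 71 calls to 10, and leaving out the library with all 3 agents raised them to 115. Without the former library 22 of 28 named calls were lost, Pdcd1 (adjusted p = 0.0532), Lag3, Gzmf and Tcf7 among them. Pdcd1 kept its call under the other 7 omissions, while Lag3, Gzmf and Tcf7 lost theirs under 3, 4 and 5 of the 8 (adjusted p up to 0.071, 0.0628 and 0.075). Without the PancVAX, Anti-CTLA-4, Anti-PD-1 or isotype control library 39, 34, 21 and 26 genes were called. Between clones of at least 10 cells and those of 5 to 9 cells, edgeR called 0 of 7485 genes (0%), with 425 at an unadjusted p under 0.05, and DESeq2 called 0 with 132. The 13 inhibitory genes had log2 fold changes of 0.09 to 0.48 there, with a median of 0.33.

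Mean CPM, for clones of 1, 2 to 4, 5 to 9, 10 to 19 and 20 or more cells, was taken over the 7 libraries that had clones of every size. The PancVAX library had no clone of 20 or more cells, and the isotype control library had 1. Sizes are counts of cells read, and the 8 libraries held 439 to 1464 TRB cells. A size class, singletons included, is thus a different share of each library. Tcf7 stood at 67.0, 24.9, 10.9, 9.71 and 8.92, with the largest step between singletons and clones of 2 to 4 cells. Pdcd1 stood at 162, 308, 369, 391 and 387, a mean over unlike courses. Over all libraries with PancVAX (3 at 20 or more cells) it stood at 181, 241, 328, 408 and 420. Without PancVAX it stood at 154, 373, 406, 389 and 362, with most of the rise at 2 to 4 cells. Tox stood at 58.6, 120.3, 150.2, 183 and 143 and was highest at 10 to 19 cells. Ly6c2 stood at 1069, 614, 393, 308 and 189, again a mean over unlike courses. With PancVAX it stood at 1365.5, 1179, 792, 512 and 313, lower at each step. Without PancVAX it stood at 842, 144.3, 74.4, 144.4 and 95.3, with most of the fall at 2 to 4 cells. Mki67 stood at 113, 108, 108, 95.8 and 159. At the limit that defined the members, pooled CPM in clones of 3, 4, 5 and 6 cells was 299, 280, 323 and 270.1 for Pdcd1, 94.0, 107, 101 and 112 for Tox and 886, 596, 779 and 622 for Ly6c2, so nothing in these values set clones of 5 cells apart from those of 4.

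**Figure D3:**
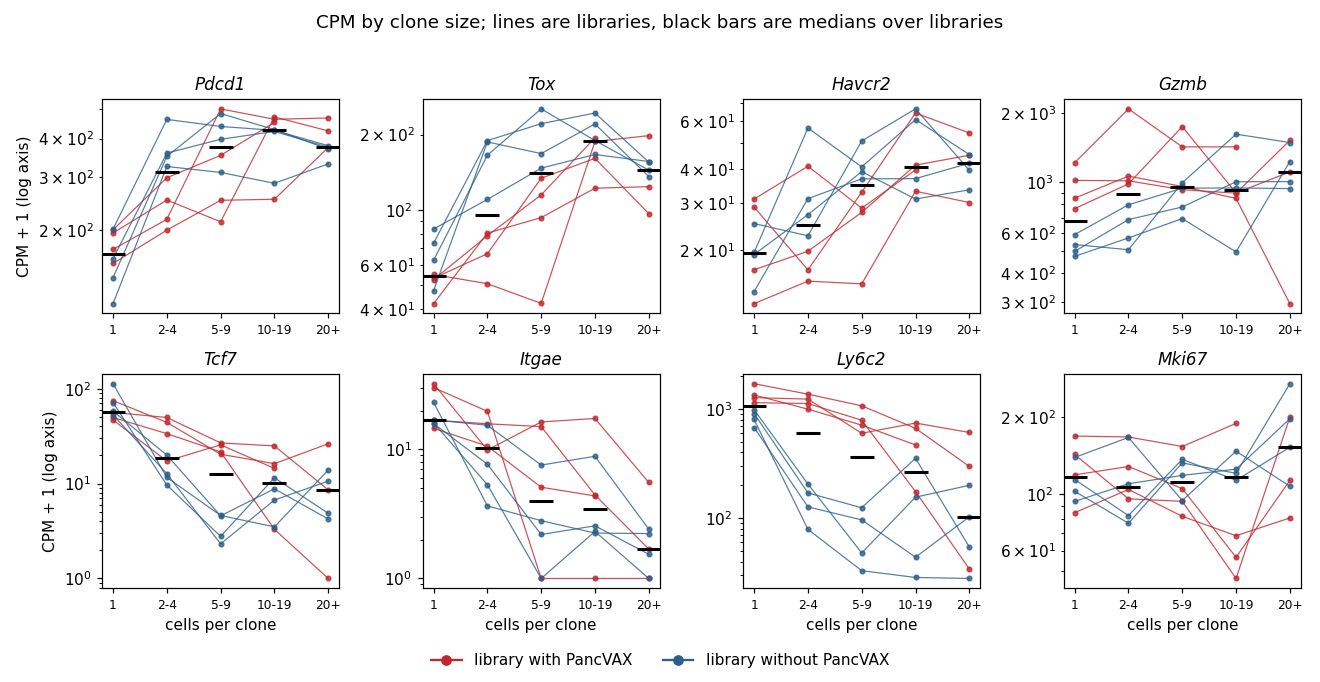
CPM of 8 genes in clones of 1, 2 to 4, 5 to 9, 10 to 19 and 20 or more cells, with 1 line per library and black bars at the median over libraries. From singletons to clones of 2 to 4 cells the medians of Pdcd1 and Tox step up and those of Tcf7 and Itgae step down. Tox and Itgae were not called in that comparison. Mki67 has means of 113, 108, 108, 95.8 and 159 CPM over the 7 libraries with clones of every size. The PancVAX library has no clone of 20 or more cells, so the last bar rests on 7 libraries.

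Single clones differed widely from each other. Among the 27 clones with at least 20 member cells, Pdcd1 ranged from 67.6 to 577 CPM (median 370.1), Tox from 8.81 to 287 (median 135), Gzmb from 126 to 3438 (median 661), Mki67 from 51.3 to 270.0 and Ly6c2 from 2.34 to 2232 (median 36.9).

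The clones with the highest Ly6c2 were looked at among the 95 clones with at least 10 member cells, 35 from libraries with PancVAX and 60 from those without. The limit was set after the values were seen, at the highest clone without PancVAX, so all clones past it are from libraries with PancVAX by construction and they are described without a test. No gap separated them from the next clone. The highest Ly6c2 in a clone from a library without PancVAX was 1871 CPM, and 7 clones with PancVAX exceeded it, at 1903 to 3374 CPM (median 2593), against a median of 38.6 in the other 88. They came from the PancVAX (1 of 6 clones), PancVAX + Anti-CTLA-4 (3 of 7) and PancVAX + Anti-PD-1 (3 of 13) libraries, and 0 of 9 came from the library with all 3 agents. Ccl5 stood at 19963 to 30197 CPM (median 23064) in these 7 and 305 to 19209 CPM (median 1933) in the rest, so the ranges did not overlap. S1pr1 stood at 163 to 388 CPM (median 237) against 0 to 226 CPM (median 0), and Klf2 at 554 to 2279 CPM (median 863) against 27.6 to 1129 CPM (median 131). Tox was low, at 0 to 46.9 CPM (median 11.3) against 0 to 524 CPM (median 174), while Pdcd1 ranged from 46.9 to 563 and overlapped with the rest.

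The largest of the 7 was the TRBV16 clone of the PancVAX + Anti-CTLA-4 library whose sequence is shown above. Over its 29 member cells Ly6c2 was 1903 CPM (95% interval 1658 to 2175), S1pr1 388 CPM (95% interval 282 to 521), Pdcd1 229 CPM (95% interval 149.7 to 336) and Gzmb 2318 CPM (95% interval 2046 to 2615). A TRBV26 clone of 26 cells in the PancVAX + Anti-PD-1 library had Ly6c2 at 2232 CPM (95% interval 1932 to 2566), S1pr1 at 282 CPM (95% interval 182 to 416) and Pdcd1 at 67.6 CPM (95% interval 24.8 to 147) over 20 member cells. S1pr1 exceeded the highest clone without PancVAX (9.55 CPM) in 14 of 35 clones with it, and was at a median of 5.00 CPM over the 35.

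**Figure D4:**
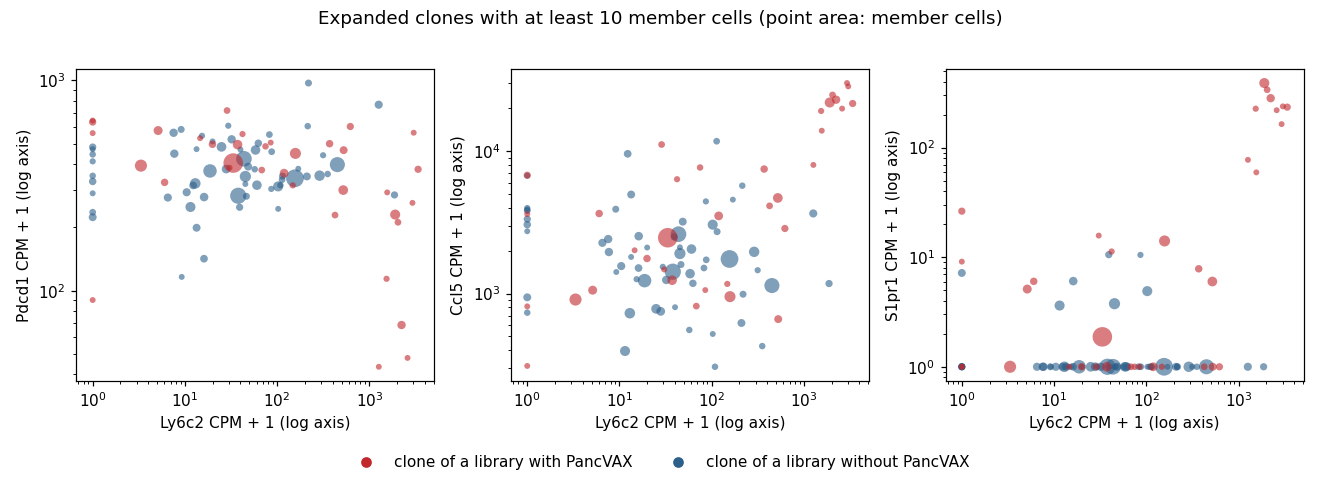
Ly6c2 against Pdcd1, Ccl5 and S1pr1 in CPM for the 95 clones with at least 10 member cells, with 1 point per clone, its area giving the member cells and its color whether the library had PancVAX. The 7 points beyond the highest Ly6c2 of a clone without PancVAX (1871 CPM) sit at Ccl5 above 19209 CPM.

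With PancVAX, expanded clones differed in 55 of 10453 genes (0.526%), 46 higher (0.44%) and 9 lower (0.0861%), in an edgeR fit over the 8 libraries with terms for both antibodies. Median UMIs per expanded cell were also lower, at 4814 to 5166.5 with PancVAX and 5816 to 7337.5 without it. The part of this depth in the calls was not tested. Of the naive and central memory genes 3 of 13 tested were higher, of the circulating effector memory genes 4 of 16, and of the chemokine receptors 2 of 8, with 0 lower in each. S1pr1 (ENSMUSG00000045092, chromosome 3, 115710433–115715055) stood at 47.5, 35.1, 42.9 and 77.9 CPM in expanded clones with PancVAX and at 0.912, 1.03, 0.265 and 2.58 without it. The groups lie far apart, and the log2 fold change was 5.60 ± 0.32 (SE, adjusted p = 1.06e-04). Lef1 stood at 11.6, 16.4, 18.7 and 23.7 CPM with and 3.65, 2.32, 3.71 and 2.58 without, 2.48 ± 0.28 (SE, adjusted p = 0.0076). Klf2 stood at 322, 338, 237 and 446 CPM with and 179, 141, 146 and 125 without, 1.16 ± 0.15 (SE, adjusted p = 0.0113). None of these 3 overlapped between libraries with and without PancVAX. Ly6c2 stood at 624, 409, 654 and 638 CPM with and 142, 83.4, 158 and 29.7 without, 2.58 ± 0.38 (SE, adjusted p = 0.0199), and Cxcr3 at 39.8, 27.2, 31.5 and 45.4 with and 7.66, 11.3, 5.30 and 5.81 without, 2.19 ± 0.19 (SE, adjusted p = 0.00197). Ccl5 stood at 5635, 5529.5, 6182 and 6466 CPM with and 2060.1, 2324, 1504 and 2038 without, 1.60 ± 0.10 (SE, adjusted p = 1.31e-04). Tnf (1.23), Ccr2 (2.08), Itgb7 (1.97) and Ifit1 (1.83) were also called higher. Nccrp1 (3.25) and the predicted gene Gm45552 (2.59) were among the 5 largest rises.

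None of the 13 inhibitory genes was called with PancVAX in expanded clones (median log2 fold change -0.32, over all genes 0.0102). Pdcd1 stood at 392, 334, 292 and 480.1 CPM with and 404, 318, 411 and 431 without, and the groups overlap. The largest falls among the called genes were Ier5l (-0.98), Gm26532 (-0.94), Gm36723 (-0.89), Dgkh (-0.85), a diacylglycerol kinase, and Eva1b (-0.76). The number of calls depended on single libraries, with 3 without the Anti-PD-1 library, 14 without PancVAX + Anti-PD-1, 19 without PancVAX + Anti-PD-1 + Anti-CTLA-4, 21 without Anti-PD-1 + Anti-CTLA-4, 28 without isotype control, 88 without Anti-CTLA-4 and 94 without PancVAX + Anti-CTLA-4. S1pr1, Ccl5 and Cxcr3 kept their calls under each of the 8 omissions, with S1pr1 at an adjusted p of 7.01e-05 to 0.00138. Ly6c2 lost its call without the PancVAX + Anti-PD-1, Anti-PD-1 + Anti-CTLA-4 or Anti-PD-1 library (adjusted p up to 0.0944), Klf2 without the Anti-PD-1 or isotype control library and Lef1 without the Anti-PD-1 library (adjusted p up to 0.0611 for both). Ccr2 and Itgb7 lost their calls under 5 omissions each, Nccrp1 under 4, Ifit1 and Gm45552 under 2, and Tnf under 1. Of the falls, Eva1b lost its call under 6, Dgkh under 5, Gm26532 and Gm36723 under 4 and Ier5l under 3 omissions. Dgkh and Gm36723 also lost theirs without the antibody terms. With the study's cell limits the 20 named calls were kept and many more genes were called, as counted in the last section. With at most 5 cells per clone 16 genes were called and 12 of 20 named calls were lost. S1pr1, Klf2, Ly6c2 and Ccl5 were called there, while Cxcr3 (2.30, adjusted p = 0.0533), Lef1 (2.45, adjusted p = 0.0533), Tnf (adjusted p = 0.0533), Ccr2 (adjusted p = 0.114), Gm45552, Klf3, Rgs2 and the 5 falls named above were not.

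The same effect in singletons called 78 of 9126 genes (0.855%), 71 higher (0.778%) and 7 lower (0.0767%), and the values of both classes are set side by side. In singletons too 4 of 16 circulating effector memory genes (Ly6c2, Itgb7, Itgb1 and Klrg1) and 2 of 8 chemokine receptors (Cxcr3 and Ccr2) were higher, with Ccr7 lower. Klrg1 and Ccr7 each lost the call under 7 of the 8 omissions. Of the cytotoxic genes 5 of 19 were higher in singletons (Gzmb, Gzmk, Fasl, Tnf and Ccl5) and 2 of 20 in expanded clones (Tnf and Ccl5), but the test of the difference, given below, called 0 of 20. Gzmb lost its singleton call under 4 omissions. Ly6c2 had 0.65 ± 0.11 (SE, adjusted p = 0.0137) there, Cxcr3 0.91 ± 0.14 (SE, adjusted p = 0.00871), Ccr2 1.98, Itgb7 1.03, Tnf 1.26 and Ifit1 1.32. Ly6c2 lost this call under 4 of the 8 omissions, Cxcr3 under 2 and Ifit1 under 8, while Ccr2, Itgb7 and Tnf kept it. The largest rises in singletons were those of Ccn5 (3.42), a secreted matricellular protein, and the keratin Krt83 (3.05), and the falls included the stromal gene Dcn, at 11.8, 41.3, 27.9 and 74.5 CPM with PancVAX and 116, 137, 116 and 44.5 without (-1.52 ± 0.32 SE, adjusted p = 0.0448), which lost its call under 6 omissions. Tumor and stromal markers summed to 313 to 783 CPM with and 467 to 902 without PancVAX in singletons and to 138 to 1167 and 246 to 686 in expanded clones. Macrophage markers summed to 121 to 496 and 279 to 972 CPM in singletons and to 72.5 to 508 and 201 to 551 in expanded clones. The part of RNA from such cells in these calls was not tested. Without the PancVAX + Anti-PD-1, Anti-PD-1, PancVAX + Anti-CTLA-4, isotype control or PancVAX + Anti-PD-1 + Anti-CTLA-4 library, the singleton calls fell to 22, 24, 29, 38 and 43. For Ccl5 the log2 fold change with PancVAX was 1.60 in expanded clones and 1.65 in singletons. Singletons held 7896, 7857, 10558 and 7540.2 CPM with PancVAX and 3139, 2095, 3778 and 2022 without. For S1pr1 the values were 5.60 and 1.01, and singletons held 75.6, 86.0, 122 and 88.8 CPM with and 55.2, 32.2, 50.9 and 46.5 without. For Lef1 they were 2.48 and -0.31, and for Klf2 1.16 and 0.22. In each of the 4 libraries without PancVAX, S1pr1 was thus far lower in expanded clones than in singletons.

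The test of the difference itself, the interaction of PancVAX with clone class, called 15 of 9664 genes (0.155%), 12 higher (0.124%) and 3 lower (0.031%) in expanded clones. S1pr1 had 4.55 ± 0.28 (SE, adjusted p = 2.00e-05) and Lef1 2.83 ± 0.24 (SE, adjusted p = 3.42e-04), and both kept the call under each of the 8 omissions. Klf2 had 0.94 ± 0.11 (SE, adjusted p = 0.00779), Ly6c2 1.94 ± 0.31 (SE, adjusted p = 0.0462) and Cxcr3 1.29 ± 0.20 (SE, adjusted p = 0.0329), whose calls ended under 2, 6 and 7 of the 8 omissions (adjusted p up to 0.0676, 0.134 and 0.217). Klf2 also lost its call without the largest clones (adjusted p = 0.0571), and Cxcr3 with DESeq2 (adjusted p = 0.207), at most 5 cells per clone (0.302), without the largest clones (0.0686) and without the antibody terms (0.197). Gzmm (4.00), at 7.06, 3.23, 4.66 and 7.45 CPM in expanded clones with PancVAX and 0.547, 0, 0.265 and 0 without, and Pde2a (3.59) were among the 5 largest. Gzmm lost its call under 7 of the 8 omissions (adjusted p up to 0.255), with at most 5 cells per clone (adjusted p = 0.113) and without the largest clones (adjusted p = 0.0571), and Pde2a under 2 omissions. DESeq2 gave neither an adjusted p. S100a4, a calcium-binding protein of effector memory cells, went the other way, -0.76 ± 0.09 (SE, adjusted p = 0.0108), with 946, 825, 848 and 766 CPM in singletons with PancVAX and 601, 643, 532 and 669 without, and 987, 807, 964 and 819 and 1104, 1103, 1091 and 1047 in expanded clones. Crem (-0.89) and the costimulatory receptor Cd28 (-0.72) were the others called lower. Cd28 lost its call under all 8 omissions (adjusted p of 0.0559 to 0.252), with DESeq2, with the study's cell limits, with at most 5 cells per clone, without the largest clones and without the antibody terms. Crem lost its call under 5 omissions and with DESeq2, and S100a4 under 2 omissions and with at most 5 cells per clone. S100a9 (2.11), called higher, lost its call under 5 of the 8 omissions, with the study's cell limits (1.09, adjusted p = 0.454), with at most 5 cells per clone (adjusted p = 0.447) and without the largest clones (adjusted p = 0.155). It is a neutrophil gene, and neutrophil markers summed to 48.4 to 282 CPM with and 18.1 to 97.7 without PancVAX in expanded clones and to 23.0 to 123 and 10.1 to 272 in singletons. The part of neutrophil RNA in this value was not tested. Klf3 (1.04), also called higher, lost its call under 7 omissions, with DESeq2 (adjusted p = 0.402), with at most 5 cells per clone (adjusted p = 0.189) and without the largest clones (adjusted p = 0.176). Ccl5 was not called (-0.05 ± 0.14 SE, adjusted p = 0.966). The calls fell to 2 without the PancVAX + Anti-PD-1 or the Anti-PD-1 library, to 7 without the Anti-PD-1 + Anti-CTLA-4 or the isotype control library and to 9 without the PancVAX + Anti-PD-1 + Anti-CTLA-4 library, and 7 were made without the largest clone of each library.

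**Figure D5:**
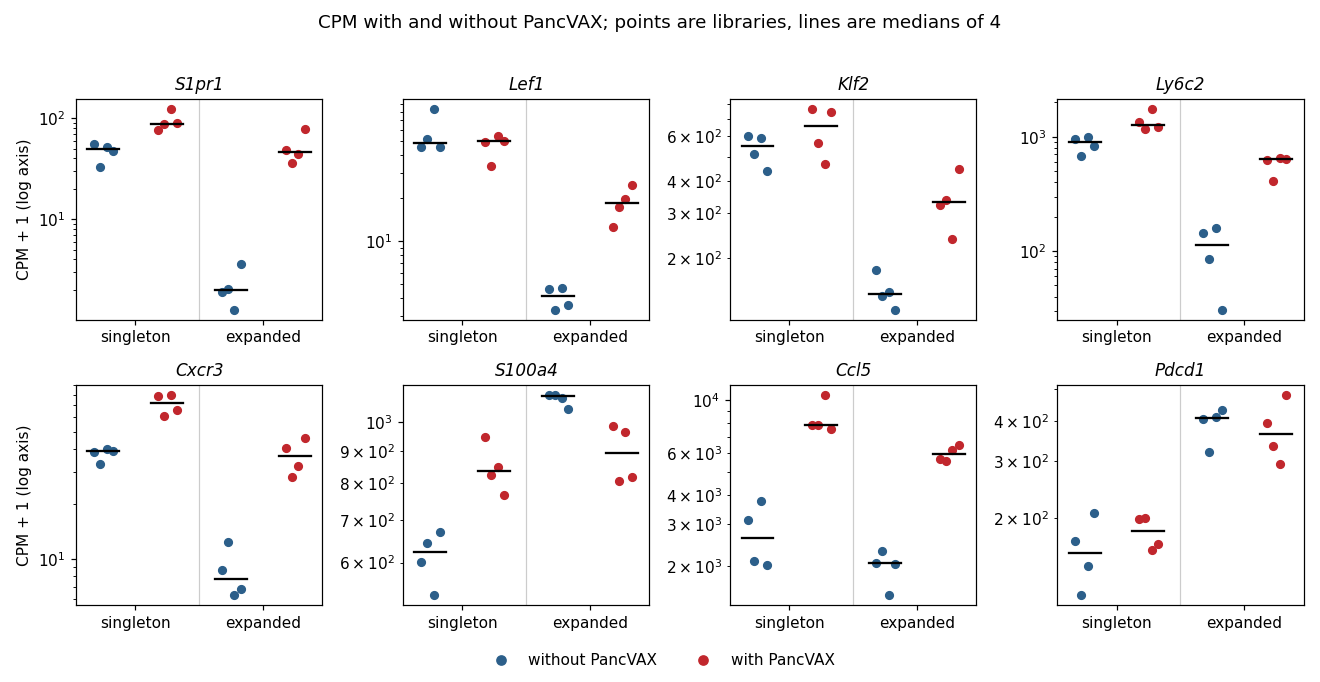
CPM of 8 genes in singletons and expanded clones, for the 4 libraries without and the 4 with PancVAX, with points for libraries and lines for the medians of 4. In expanded clones S1pr1, Lef1, Klf2, Ly6c2, Cxcr3 and Ccl5 are separated by PancVAX, and Pdcd1 overlaps.

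The interaction of Anti-PD-1 with clone class called 7 genes (0.0724%), 6 higher (0.0621%) and 1 lower (0.0103%) in expanded clones. Slurp1, a secreted protein of skin, had 10.27 ± 0.75 (SE, adjusted p = 0.00403). In singletons without PancVAX it stood at 1.24, 142, 0 and 0 CPM, high only in the Anti-CTLA-4 library among these. Its values in the remaining sums are not given here. The chemokines Cxcl1 (3.84) and Cxcl10 (2.96), Plaur (1.66), Nupr1 (1.40) and Ctsl (1.02) were higher and Penk (-2.28), which encodes an opioid precursor, lower. The 5 macrophage markers summed to 201 to 551 CPM in expanded clones with Anti-PD-1 and 72.5 to 508 without it, and to 121 to 972 and 279.5 to 602 in singletons. The 5 tumor and stromal markers summed to 257 to 1167 and 138 to 470.2 CPM in expanded clones and to 313 to 783 and 561 to 902 in singletons. Every one of these 10 genes was read in each sum, and the part of RNA from such cells in the 7 calls was not tested. Slurp1 lost its call without the PancVAX + Anti-PD-1 + Anti-CTLA-4, Anti-PD-1 + Anti-CTLA-4 or Anti-CTLA-4 library (log2 fold change 5.64 at the lowest), Cxcl1 under 5 omissions, Plaur under 3, Cxcl10 and Penk under 2 and Nupr1 under 1. The calls numbered 0 without the PancVAX + Anti-PD-1 + Anti-CTLA-4 library, 1 without Anti-PD-1 + Anti-CTLA-4, 39 without Anti-CTLA-4 and 44 without PancVAX. For Anti-CTLA-4, edgeR called 0 of 9664 genes (0%), with 331 at an unadjusted p under 0.05, and DESeq2 called 0 with 26.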

How the data were processed

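The authors aligned and counted reads with Cell Ranger 4.0.0 (genome mm10, per the labels) and deposited raw UMI counts per gene and barcode and tables of receptor contigs. Barcodes were assigned to libraries by their numeric suffix, matched to the sample descriptions. The 8 Percoll libraries held 5743 to 11979 barcodes and 86932783 to 176233225 UMIs each, and whole-tumor libraries were not used. The members, gene lists and comparisons were chosen with earlier results of these data known.

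UMI counts of CD8+ cells were summed by library and clone class (at least 10 cells per sum). Sums were tested with the edgeR 4.0.16 quasi-likelihood test (R 4.3.3), TMM normalization, filterByExpr and Benjamini-Hochberg adjustment, with the library as a block, which pairs the classes since both come from 1 library. PancVAX was tested with terms for both antibodies, alone and with clone class. CPM of tested genes are TMM-scaled. CPM by clone size, of marker sums, of single clones and of the TRBV5 and TRAJ7 clones are per total UMIs. Called genes needed an adjusted p below 0.05 and an absolute log2 fold change above 0.5. With 1 pooled library per treatment, p-values measure the spread between libraries. Single values were tested by exact sign-flip permutation over 8 libraries, 2-sided. DESeq2 1.42.0, no filter on low counts, no block, leaving out each library and other limits on cells and clones were alternatives. No doublet caller was run. More than 1 TRB contig was read in 31 of 2895 cells of expanded clones (1.07%) and 89 of 1766 singletons (5.04%). On simulated counts with 200 genes changed 2-fold, 93.0, 74.5 and 57.5% were recovered for expanded clones against singletons, PancVAX in expanded clones and PancVAX by clone class.

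Named genes were members of the lists (the rule took up to 6 per list, and further members were named after their values were seen), the 10 largest rises and falls with 1 sign in all 8 libraries and at least 100 UMIs, and in other comparisons the 5 largest each way. TRAJ7 and the 7 clones with high Ly6c2 were added after their values were seen. Some listed genes are not reported here. Positions come from RefSeq (GRCm38.p6; 179 of 182 symbols matched). Python 3.11.15, numpy 2.4.6, scipy 1.17.1 and pandas 2.3.3 were used.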

Additional observations from a re-analysis of the deposited data

Results flagged for a closer look

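Samples far from the others of their group, by Dixon's criterion, occurred in 2 of 156 differences between expanded clones and singletons and in 5 of 88 groups of 4 libraries, and chance gives about 1 in 20. The difference of Cd244a was 3.05 (log2) in the PancVAX + Anti-CTLA-4 library and 1.12 to 1.61 in the others, and that of Serpinb9b was 6.42 in the Anti-PD-1 library and 0.52 to 3.18 in the others. In the groups of 4, the separate values were 110.95 CPM for Cd28, 29.695 for Gm36723, 82.215 for Lef1, 409.42 for Ly6c2 (expanded clones with all 3 agents) and 5.1656 for Nccrp1.

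The effect of PancVAX differed between expanded clones and singletons in 15 genes by the interaction test of edgeR. The differences (expanded minus singleton, log2) were 4.55 for S1pr1, 4.00 for Gzmm, 3.59 for Pde2a, 2.83 for Lef1, 2.11 for S100a9, 1.94 for Ly6c2, 1.64 for Il1r2, 1.49 for Nrarp, 1.29 for Cxcr3, 1.26 for Gm2682, 1.04 for Klf3, 0.94 for Klf2, -0.72 for Cd28, -0.76 for S100a4 and -0.89 for Crem. For Anti-PD-1 the same test gave 10.27 for Slurp1, 3.84 for Cxcl1, 2.96 for Cxcl10, 1.66 for Plaur, 1.40 for Nupr1, 1.02 for Ctsl and -2.28 for Penk.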

How the results depend on the processing

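With the library block, which pairs the classes of 1 library, 537 genes differed between expanded clones and singletons, and without it 410, with 19 of 86 named calls lost. For clones of 2 to 4 cells the count went from 71 to 10 without the block. DESeq2 called 433 genes for expanded clones, and leaving out 1 library gave 429 to 597. No filter on low counts gave 822, at most 5 cells per clone 318, leaving out cells with UMIs of naive cell genes (Ccr7 and Lef1 among them) 310 and only cells with a Pdcd1 UMI 96. The remaining alternatives lay within 482 to 701. Genes whose direction changed under an alternative were Ccr8 (0.65 and 0.56), Ctla4 (-0.030405), Pclaf (-0.66) and Txk (0.62).

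No filter gave 344 calls for clones of 2 to 4 cells, 58 between clones of at least 10 and of 5 to 9 cells, 182 for PancVAX in expanded clones, 380 in singletons, 46, 67 and 2 for the clone class interactions of PancVAX, of Anti-PD-1 and of Anti-CTLA-4. DESeq2 gave 91, 8 and 11 for PancVAX in expanded clones and the interactions with PancVAX and Anti-PD-1. The study's cell limits gave 366 for PancVAX in expanded clones and 76 for its interaction, at most 5 cells per clone gave 16 for the former, and the latter had 7 without the largest clones. Leaving out 1 library gave 10 to 115 calls for clones of 2 to 4 cells, 3 to 94 and 22 to 79 for PancVAX in expanded clones and singletons, and 2 to 19, 0 to 44 and 0 to 3 for the 3 interactions in the same order. The CDR3 length difference was -0.206 bases with each cell counted once, -0.0353 over all clones (an alternative chosen after seeing the data) and -0.0002246 to 0.247 with 1 library left out. UMIs per cell differed by 314.9 with the study's limits. Over all clones, a setting also chosen after seeing the data, 9 V genes passed. This setting adds many singletons without a CD8 UMI. The causes were not tested. With 4 libraries on each side and sums of at least 10 cells, small effects in genes of few UMIs could not be detected.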
